A study of Mus musculus with 2 samples.

Results

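The guanylate-binding proteins (GBPs) and immunity-related GTPases (IRGs) described here are 10 genes, Gbp2, Gbp3, Gbp4, Gbp5, Gbp6, Gbp7, Gbp9, Irgm1, Irgm2 and Igtp, out of 55487 genes in the deposited expression table. They were chosen by gene symbol, matched through the GENCODE annotation of the mouse genome build GRCm38, and each symbol had 1 identifier. The table holds mRNA levels in apoptotic osteoblasts (apoOBs), bone-forming cells in culture that had been driven into cell death, with 1 library from young and 1 from old mice. In both groups, cells grown out of bone pieces were passaged 3 times, kept in osteogenic medium for 3 days and exposed to ultraviolet light for 0.5 h, after which over 90% of cells took up Trypan Blue, which stains cells whose membrane has broken down. The labels give no strain, genotype, age in weeks or number of animals. Under treatment they say day 0 (young) and day 5 (old), so that this entry and age cannot be told apart.

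GBPs and IRGs are GTP-splitting enzymes whose genes are switched on by interferons, above all by interferon gamma, in immune and non-immune cells alike. GBPs gather on the vacuoles and surfaces of intracellular microbes and help to open them, which exposes microbial products to inflammasomes. Among the IRGs, Irgm1, Irgm2 and Igtp belong to the regulatory class, which sits on the cell's own membranes and keeps the effector IRGs from acting there. Interferon acts on such genes through transcription factors that bind the gamma-activated site (GAS) and through complexes with STAT2 and IRF9, or other IRF factors, that bind the interferon-stimulated response element (ISRE).

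The promoters of these genes show the letters that such factors read. RefSeq windows on GRCm38.p6, each from 250 bases before to 50 bases after a gene's start, were at hand for Gbp2, Gbp3, Gbp5, Gbp7, Irgm1, Irgm2 and Igtp. All 7 of these genes had the ISRE core GAAANNGAAA, read on both strands, in a window, against 3.99% of the 27025 genes with a window. The GAS core TTCNNNGAA, which is its own reverse complement, was found in 4 of the 7 (Gbp5, Gbp7, Irgm2 and Igtp), against 9.55% of genes. No ISRE core overlapped a GAS core in these windows. A match describes letters and does not show that a factor was bound. The stretches around the ISRE core follow, 5′ to 3′ on the strand of the gene, with the core in capitals. Stretches that touch an annotated exon were kept to 30 bases.
Gbp2: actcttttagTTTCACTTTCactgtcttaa
Gbp3: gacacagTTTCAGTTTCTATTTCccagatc
Gbp5: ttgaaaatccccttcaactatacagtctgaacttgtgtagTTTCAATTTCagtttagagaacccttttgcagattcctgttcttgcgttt
Gbp7: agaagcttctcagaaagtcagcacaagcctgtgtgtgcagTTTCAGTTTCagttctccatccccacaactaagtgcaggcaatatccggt
Irgm1: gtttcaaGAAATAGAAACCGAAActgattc
Irgm2: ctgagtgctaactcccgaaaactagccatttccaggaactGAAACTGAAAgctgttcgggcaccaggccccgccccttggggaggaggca
Igtp: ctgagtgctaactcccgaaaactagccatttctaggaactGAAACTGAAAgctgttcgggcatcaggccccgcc

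The 4 GBP stretches are on the plus strand of chromosome 3, at chr3:142620594-142620623 for Gbp2, chr3:142559992-142560021 for Gbp3, chr3:142496729-142496818 for Gbp5 and chr3:142530243-142530332 for Gbp7. In all 4 the core reads as TTTCNNTTTC on the strand of their gene. In the 3 IRG stretches it reads as GAAANNGAAA, and these lie on chromosome 11, at chr11:48871428-48871457 on the minus strand for Irgm1 and, on the plus strand, at chr11:58214873-58214962 for Irgm2 and chr11:58199482-58199555 for Igtp. Gbp3 and Irgm1 each had 2 overlapping cores. The core began 59 bases before the start in Gbp2, 53 in Gbp7, 34 in Igtp and 64 in Irgm2, and the nearer of the cores began 39 bases before it in Gbp3 and 24 in Irgm1. In Gbp5 it lay farther off, 165 bases before the start. These distances hold for the RefSeq starts. GENCODE places the cores of Gbp2 and Irgm1 inside an annotated exon, since it starts those genes farther upstream than RefSeq does. It also starts Gbp5 (at 142493978) and Irgm2 (at 58199618) upstream of the RefSeq starts (142496934 and 58214977). The stretches of Gbp5 and Irgm2 thus lie within a GENCODE gene. The printed Igtp stretch differed from the same stretch of Irgm2 at 2 of 74 bases.

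Old and young libraries were compared to see which mRNAs of apoptotic osteoblasts differ with the age of the mice. All 10 genes had a higher level in the old library, where 46.5% of the 22618 genes with any read did. Levels are in FPKM, fragments scaled to gene length and to the library's total. Their sum was 94.2 FPKM in young and 175 FPKM in old cells, on 3682 and 7451 reads, and their share of all reads was 1.82-fold higher in the old library [1.75 to 1.90]. Brackets hold 95% counting intervals of the ratio of old over young. They cover counting error alone, and with 1 library per group no difference has a replicate check and no test was run. In bulk RNA, more expressing cells and more RNA per cell cannot be told apart.

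**Figure D1:**
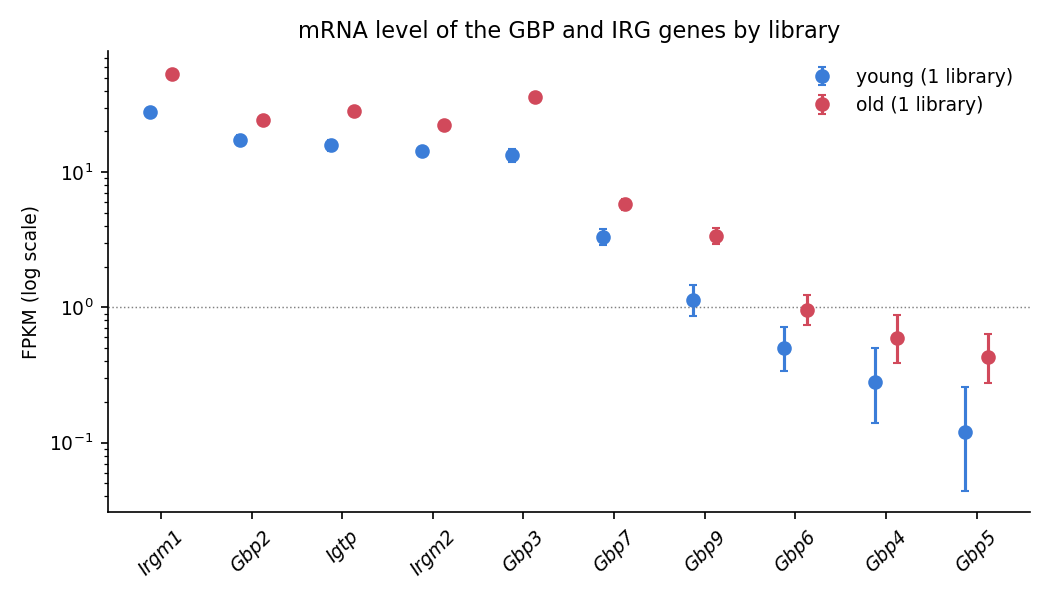
Level of each of the 10 genes in FPKM (log axis) in the young and the old library, 1 library each, ordered by the level in the young; bars are exact 95% Poisson counting intervals and the dotted line marks 1 FPKM. Every gene is higher in the old library, from Irgm1 at 28.0 and 53.2 FPKM down to Gbp5 at 0.119 and 0.429 FPKM.

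The regulatory IRGs made up most of the summed level, with 61.7% of it in young and 59.1% in old cells. Irgm1 (ENSMUSG00000046879, chromosome 11, 48861968 to 48871683, minus strand), which also takes part in autophagy, measured 28.0 FPKM in young cells against 53.2 FPKM in old cells. It was the most abundant of the 10 in both. Its ratio was 1.90 [1.77 to 2.03] on 1246 and 2623 reads, and 0.619% of its 50-base words were found in transcripts of other genes.

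Igtp (ENSMUSG00000078853, chromosome 11, 58199556 to 58207591), also called Irgm3 and found on endoplasmic reticulum and lipid droplets, measured 15.8 FPKM in young cells against 28.1 FPKM in old cells. The ratio was 1.78 [1.59 to 1.99]. Irgm2 (ENSMUSG00000069874, chromosome 11, 58199618 to 58222782), a regulator found on the Golgi, measured 14.3 FPKM in young cells against 22.2 FPKM in old cells, with a ratio of 1.55 [1.42 to 1.69]. The annotated spans of Igtp and Irgm2 overlap on the same strand. Their exons share 8.01% of the exon bases of Igtp and 4.39% of those of Irgm2, and 13.2% and 7.0% of their words occur in other genes. Within the IRGs the counting intervals of Irgm1 and Irgm2 did not overlap, while that of Igtp overlapped both.

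Among the GBPs, Gbp2 and Gbp3 carried 85.1% (young) and 84.4% (old) of the summed level, and they changed places. Gbp2 (ENSMUSG00000028270, chromosome 3, 142620602 to 142638008), a prenylated GBP that targets vacuoles, measured 17.3 FPKM in young cells against 24.3 FPKM in old cells, on 477 and 743 reads. Its ratio of 1.40 [1.25 to 1.58] was the lowest of the 10. Gbp3 (ENSMUSG00000028268, chromosome 3, 142560026 to 142573209) measured 13.4 FPKM in young cells against 36.0 FPKM in old cells, on 333 and 995 reads, with a ratio of 2.69 [2.38 to 3.06]. Gbp2 thus gave 48.1% (young) and 34.1% (old) of the summed GBP level, and Gbp3 gave 37.0% and 50.3%. Few of their words are shared with other genes, 2.27% for Gbp2 and 4.60% for Gbp3.

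The other GBPs were lower in level. Gbp7 (ENSMUSG00000040253, chromosome 3, 142530342 to 142550149), tied to oxidative killing of bacteria, measured 3.34 FPKM in young cells against 5.80 FPKM in old cells, with a ratio of 1.74 [1.47 to 2.05]. Gbp9 (ENSMUSG00000029298, chromosome 5, 105077630 to 105139539, minus strand) was at 1.14 and 3.38 FPKM on 59 and 194 reads, with a ratio of 2.96 [2.20 to 4.04]. Some of their sequence is not unique, with 11.3% of the words of Gbp7 and 10.8% of those of Gbp9 found in other genes.

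Gbp4, Gbp5 and Gbp6 had a mean below 1 FPKM. Gbp5 (ENSMUSG00000105504, chromosome 3, 142493978 to 142522344), which promotes inflammasome assembly, was at 0.119 and 0.429 FPKM, on 6 and 24 reads, with a ratio of 3.61 [1.44 to 10.8]. Gbp4 (ENSMUSG00000079363, chromosome 5, 105115767 to 105139586, minus strand) was at 0.280 and 0.597 FPKM, on 11 and 26 reads, with a ratio of 2.13 [1.02 to 4.78]. Gbp6 (ENSMUSG00000104713, chromosome 5, 105270702 to 105293698, minus strand) was at 0.500 and 0.962 FPKM, on 30 and 64 reads, with a ratio of 1.92 [1.23 to 3.07]. Its value is uncertain, since 78.1% of its words occur in other genes, with 74.8% in the overlapping gene Gm43302 and 53.1% in Gbp10. Gbp4 and Gbp5 were close to the lower limit of what this depth resolves, and the ratios of all 3 genes have wide intervals.

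The interval lay wholly above 1 for all 10 genes, against 13.4% of genes with any read and 20.5% of those whose mean reached 1 FPKM. The lower bound for Gbp4 was 1.02, the nearest to even. The 10 genes did not differ between libraries by a common factor. Of their 45 pairs, 13 had intervals of the ratio that did not overlap, and 12 of the 13 had Gbp3 or Gbp9 on the higher side or Gbp2 on the lower. Gbp3 lay above Gbp2, Gbp7, Irgm1, Irgm2 and Igtp, and Gbp9 lay above the same 5. Gbp2 also lay below Irgm1 and Igtp.

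In both libraries Irgm1 stood first in level, and Gbp7, Gbp9, Gbp6, Gbp4 and Gbp5 stood last, in that order. The order of the rest differed. In the young library it was Gbp2, Igtp, Irgm2 and Gbp3, with overlapping counting intervals between each neighbour. In the old library it was Gbp3, Igtp, Gbp2 and Irgm2, and only Gbp2 and Irgm2 overlapped. Gbp6 overlapped Gbp4, and Gbp4 overlapped Gbp5, in both. These intervals do not cover the gene length that FPKM is scaled to, so the order between genes also rests on that length. By reads, Irgm2 stood above Igtp, with 816 against 483 in the young and 1403 against 953 in the old.

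**Figure D2:**
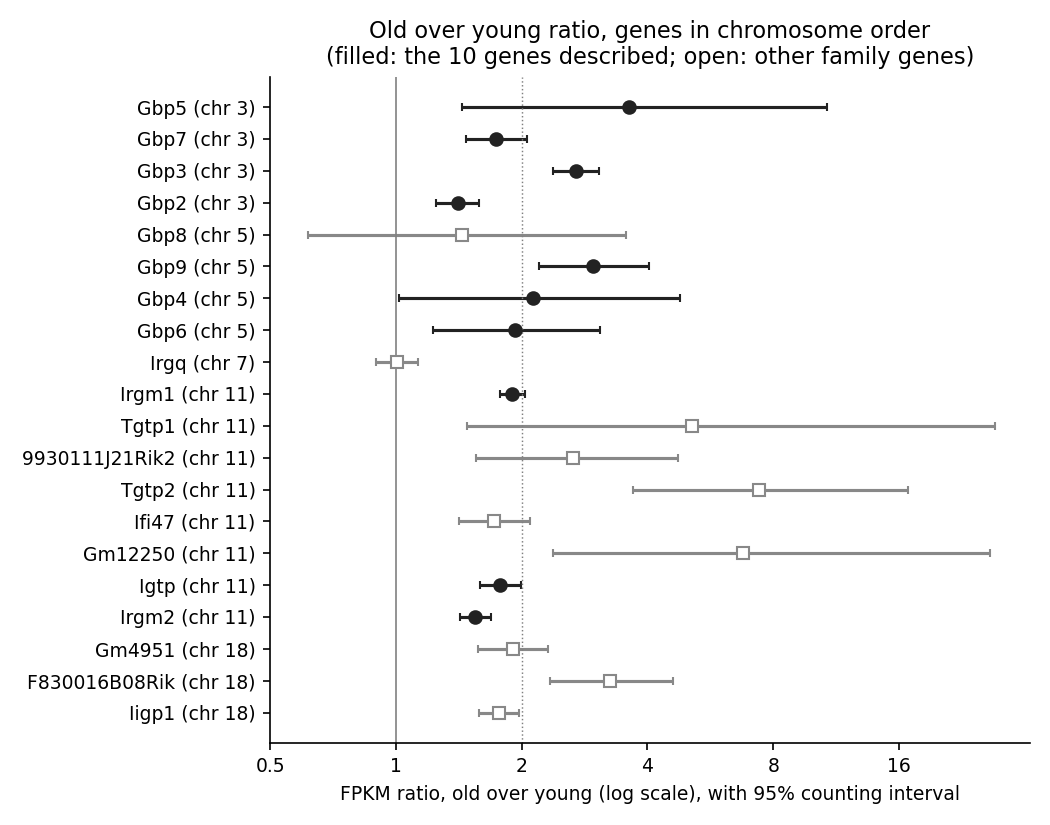
FPKM ratio of old over young (log axis) with its 95% counting interval for the 10 genes (filled circles) and for other family genes with at least 20 reads over both libraries and 1 or more in the young (open squares), in order along the chromosomes; lines mark even and 2-fold. The filled points lie between 1.40 for Gbp2 and 3.61 for Gbp5, and Irgq, at 1.01, sits on the even line.

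For a measure that is less moved by low genes, log2 ratios of FPKM + 1 were taken, and the filter kept genes whose mean over both libraries was at least 1 FPKM. This left 7 of the 10 genes and 12561 genes in all. At 2-fold or more, 2 of the 7 were higher in the old library, against 1.97% of all genes, and 0 were lower, against 0.868%. These were Gbp3, with a log2 ratio of 1.37, and Gbp9, with 1.03. The other 5 lay below 2-fold, at 0.90 for Irgm1, 0.79 for Igtp, 0.65 for Gbp7, 0.60 for Irgm2 and 0.47 for Gbp2. All 7 were above 0, where 40.4% of all genes were. Their median was 0.79, beside a median of −0.07 over all genes. By log2 ratio, Gbp3 ranked 118 and Gbp2 ranked 954 of 12561. Gbp9 was under 2-fold at a pseudocount of 5, with a log2 ratio of 0.45.

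**Figure D3:**
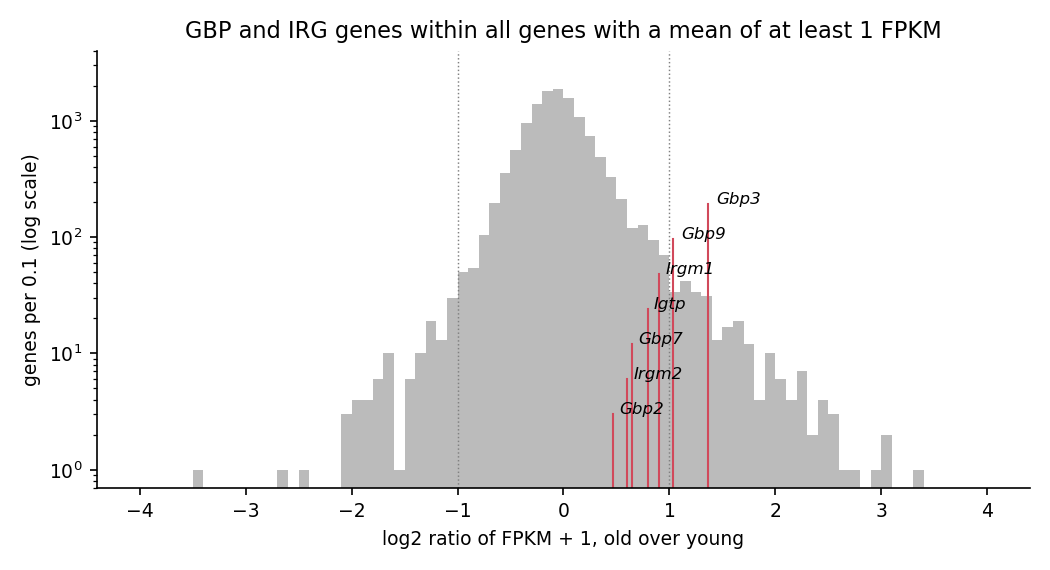
Number of genes (log axis) in steps of 0.1 of the log2 ratio of FPKM + 1 (old against young) for all 12561 genes past the 1 FPKM filter; red lines mark the 7 GBP and IRG genes among them and their heights carry no value. The 7 lie right of the peak, from 0.47 for Gbp2 to 1.37 for Gbp3, with Gbp3 and Gbp9 past the dotted 2-fold line.

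Other members of both families were read from lists drawn up beside the 10 genes. The effector IRGs, which coat and break pathogen vacuoles, were higher in the old library. Iigp1 measured 13.0 FPKM in young cells against 22.9 FPKM in old cells, with a ratio of 1.76 [1.58 to 1.97], and Ifi47 was at 7.35 and 12.6 FPKM, with a ratio of 1.72 [1.41 to 2.10]. These ratios are close to those of Igtp and Irgm1. Tgtp2 had 9 and 74 reads and a ratio of 7.41 [3.70 to 16.8], and its near copy Tgtp1 had 3 and 17 reads. With 83.1% and 81.8% of their words in other genes, mostly in each other, the pair cannot be told apart.

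Gm12250, annotated as a processed pseudogene and known as Irgb10, had 4 and 30 reads. F830016B08Rik was at 0.854 and 2.78 FPKM and Gm4951 at 3.66 and 6.97 FPKM. Of the near copies 9930111J21Rik1 and 9930111J21Rik2, the first had 1 and 8 reads and the second 19 and 56. Irgq, a divergent relative, was even (5.60 and 5.64 FPKM), with a ratio of 1.01 [0.897 to 1.13], and Irgc1, a testis gene, had no reads. Of these 11 other IRG genes, 6 passed the 1 FPKM filter, with a median log2 ratio of 0.77. At 2-fold or more, 2 of the 6 (Tgtp2 and F830016B08Rik) were higher, against 1.97% of all genes, and 0 were lower, against 0.868%. Tgtp2 and F830016B08Rik were below 1 FPKM in the young library and passed the filter through the old one, so that this count and median support nothing about the IRGs. Of the 7 with a RefSeq window, Tgtp1, Tgtp2, Gm12250 and 9930111J21Rik1 held the ISRE core, and Ifi47, Irgq and 9930111J21Rik2 did not.

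None of the 4 other GBP genes reached a mean of 1 FPKM. Gbp2b, which lies between Gbp3 and Gbp2 on chromosome 3, had 0 reads in both libraries. Its upper limit, set at 3 reads, was 0.0651 FPKM (young) and 0.0587 FPKM (old). Its window also held the ISRE core, 137 bases before the start. Gbp8 had 10 and 16 reads, Gbp10 had 5 and 3, and Gbp11, annotated as a polymorphic pseudogene, had 0 and 4. Of their words, 19.6% (Gbp8), 82.0% (Gbp10) and 24.1% (Gbp11) occur in other genes. For Gbp10, 73.1% occur in Gbp6, so that its reads are uncertain.

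Larger interferon-induced GTPases went the same way. Mx1 measured 1.11 FPKM in young cells against 8.85 FPKM in old cells, with a ratio of 7.95 [5.47 to 12.3], and Mx2 was at 4.72 and 13.2 FPKM, with a ratio of 2.79 [2.29 to 3.43]. The interval of Mx1 lay above those of Gbp2, Gbp3, Gbp7, Gbp9, Irgm1, Irgm2 and Igtp. It is approximate, since whole reads could not be recovered for Mx1 and rounded ones were used. Gvin1 had 0 and 1 read, with 99.2% of its words shared.

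The signalling genes upstream of GBPs and IRGs were divided. Of 10 interferon ligands, 8 had 0 reads in both libraries, and Ifnb1 and Ifne had 1 read each in the old. Some of the 8 share sequence with other genes, up to 66.7% of words in Ifna1 and 61.9% in Ifna5. Their 0 reads are thus less certain. Ifng, the ligand that GBPs answer most strongly, was among the 8, so that levels up to 0.232 FPKM (young) and 0.209 FPKM (old) would go unseen. Of the 7 receptor and kinase genes none was at 2-fold, where 1.97% of all genes were higher and 0.868% lower. Their median log2 ratio was −0.12. The interferon gamma receptor chains were lower, with Ifngr1 at 62.7 and 48.3 FPKM (ratio 0.771 [0.705 to 0.843]) and Ifngr2 at 29.9 and 25.7 FPKM (0.859 [0.789 to 0.936]). The type I receptor chain Ifnar1 was at 36.5 and 33.0 FPKM and Ifnar2 at 13.5 and 15.7 FPKM. The kinases Jak1, Jak2 and Tyk2 had ratios of 0.980, 0.918 and 1.10.

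Of 11 listed transcription regulators of the interferon response, 8 passed the 1 FPKM filter, with a median log2 ratio of 0.55. At 2-fold or more, 2 (Irf7 and Nlrc5) were higher, against 1.97% of all genes, and 0 were lower, against 0.868%. The list holds Nlrc5 and Ciita, which activate antigen presentation genes. Without both, a choice made after the data were seen, 7 passed the filter, 1 was at 2-fold or more higher and the median log2 ratio was 0.39. Stat2 and Irf9, which work together at the ISRE, were higher. Stat2 was at 61.8 and 104 FPKM (ratio 1.69 [1.59 to 1.79]) and Irf9 at 23.6 and 39.3 FPKM (1.67 [1.53 to 1.83]). Irf7, which amplifies type I interferon, was at 15.9 and 37.9 FPKM, and Nlrc5, the activator of class I antigen presentation genes, was at 4.73 and 12.8 FPKM.

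Irf1, the factor through which interferon gamma raises many GBP genes, was lower in the old library. It measured 45.1 FPKM in young cells against 36.2 FPKM in old cells, with a ratio of 0.802 [0.725 to 0.886]. Irf3 was lower as well, at 51.6 and 40.5 FPKM. Stat3 and Irf2 had ratios of 1.31 and 1.14. Batf2 had 13 and 10 reads, Irf8 had 0 and 2, and Ciita had 1 and 6.

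The inhibitors of this pathway did not move together. Usp18, which blocks the type I receptor, was at 29.7 and 68.4 FPKM (ratio 2.30 [2.06 to 2.58]). Socs3, which acts mainly on gp130 signalling, was at 168 and 83.7 FPKM (0.498 [0.469 to 0.529]), at a log2 ratio of −0.998 just inside 2-fold. Socs1, the inhibitor of JAK kinases that restrains interferon gamma signalling, was even at 4.39 and 4.42 FPKM. Ptpn2 and Pias1 had ratios of 0.900 and 0.944, and Ptpn6 had 2 and 10 reads.

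**Figure D4:**
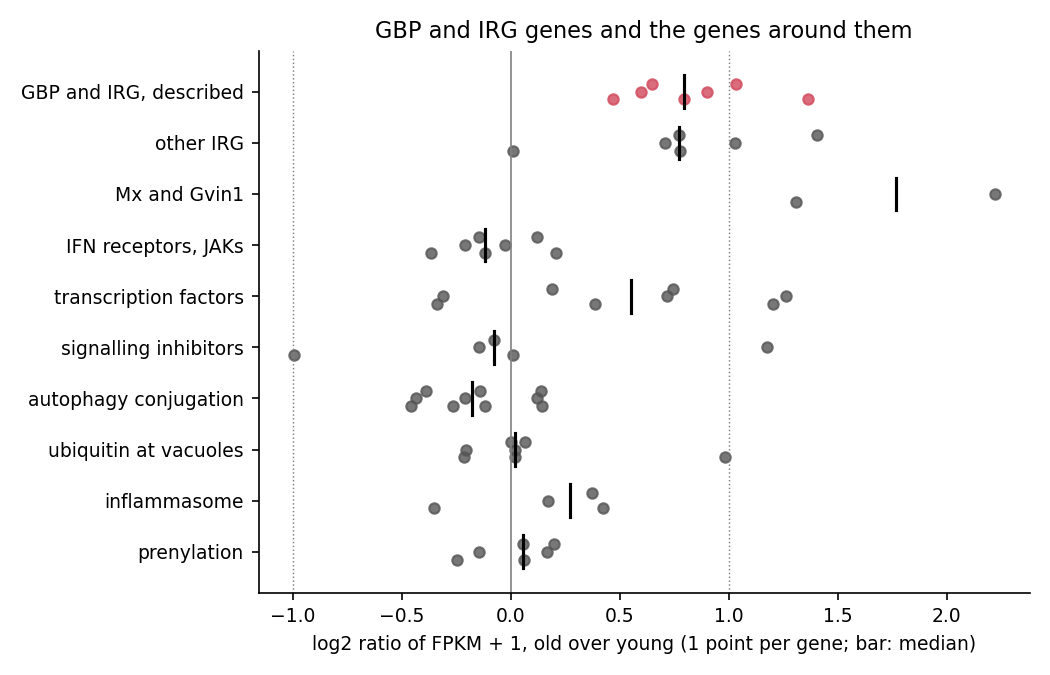
Log2 ratio of FPKM + 1 (old against young) past the 1 FPKM filter, 1 point per gene, with each list's median as a black bar; dotted lines mark 2-fold. The GBP and IRG genes (red, median 0.79) lie right of 0, while receptors and kinases (−0.12) and autophagy conjugation genes (−0.18) have medians left of it. The median of the other IRGs (0.77) supports nothing about them, since Tgtp2 and F830016B08Rik passed the filter through the old library.

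The proteins that GBPs and IRGs work with were read from further lists, in which counts at 2-fold were near the background of 1.97% higher and 0.868% lower. The autophagy conjugation proteins that guide them to vacuoles had none at 2-fold (0 of 10) and a median log2 ratio of −0.18, with the largest differences in Map1lc3a (95.2 and 69.0 FPKM), Gabarapl2 (32.8 and 24.0 FPKM) and Atg12 (15.1 and 11.3 FPKM). Of 7 ubiquitin ligases and adaptors found at vacuoles, Rnf213, a ligase that coats bacteria, stood apart at 16.3 and 33.2 FPKM, with a ratio of 2.03 [1.95 to 2.12] that is a log2 ratio of 0.98 on the FPKM + 1 scale. Nbr1 and Traf6 had log2 ratios of −0.21 each. The enzymes that attach and trim lipid anchors, which Gbp2 and Gbp5 carry, had none at 2-fold (0 of 6) and a median log2 ratio of 0.06. In that list Fnta had a log2 ratio of −0.25, Rce1 0.20 and Zmpste24 0.17.

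Inflammasome genes were mostly scarce. Of 11 listed, 4 passed the 1 FPKM filter and 0 were at 2-fold, where 1.97% of all genes were higher and 0.868% lower. Casp4, the caspase that senses lipopolysaccharide with the help of GBPs, was at 16.9 and 23.0 FPKM (ratio 1.36 [1.17 to 1.59]), and its target Gsdmd was at 23.1 and 30.2 FPKM (1.31 [1.13 to 1.51]). Il18 was at 19.3 and 14.9 FPKM. The list's adaptor Pycard and the sensors Nlrc4 and Nlrp1b, named after their values were seen, had 0 reads in both libraries, and for Pycard levels up to 0.0855 FPKM (young) and 0.0771 FPKM (old) would go unseen.

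Outside all lists, the 3 protein-coding genes whose mean was at least 10 FPKM and whose log2 ratio was nearest to the median of the 7 GBP and IRG genes were G6pdx (0.80), Mif (0.79) and Zfp36l2 (0.79). Likeness here is a difference in 1 ratio over 2 libraries. The lists left out of this search include 8 housekeeping genes. Their log2 ratios ran from −0.28 to 0.90, with a median of −0.07, so some of them differed as much as the GBP and IRG genes.

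Both libraries carried osteoblast mRNA and little from blood cells. The depth was 16333396 reads (young) and 18114336 reads (old). Of 10 osteoblast markers, 9 passed the 1 FPKM filter, with a median log2 ratio of −0.34. At 2-fold or more, 2 of the 9 were higher in the old library, against 1.97% of all genes, and 0 were lower, against 0.868%. Dmp1, 1 of the 2, was at 0.377 FPKM (young) and 4.85 FPKM (old). It passed the filter through the old library, so that this count supports nothing about the markers. Col1a1, Runx2 and Sp7 measured 8568, 92.1 and 55.5 FPKM in young cells and 6788, 72.7 and 28.9 FPKM in old cells. The late markers differed from these and among themselves, and are named here after their values were seen. Spp1 measured 224 FPKM in young cells against 1732 FPKM in old cells, Dmp1 had 17 and 243 reads, and Ibsp had 213 and 221. Bglap had 3 and 6 reads, with 55.2% of its words in other genes. Alpl, of the same list and also named after its values were seen, had 36 and 47 reads. Whether these marker differences have a part in those of the GBPs and IRGs was not tested. Ptprc, the pan-leukocyte marker, had 1 read in the young and 0 in the old, Adgre1 and Cd3e had 0 in both, and Pecam1 had 13 and 6. The summed level of 10 macrophage markers was 25.9 FPKM in young and 22.9 FPKM in old cells, with 6 of the 10 at 0. Above 1 FPKM were Lyz2 (21.3 and 18.4 FPKM) and Cd68 (4.51 and 4.36 FPKM). Of 8 T and NK cell markers, whose cells are the usual source of interferon gamma, 6 had 0 reads and the rest had 0 in the young and at most 2 in the old.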

How the data were processed

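RNA sequencing gave 1 library for each age group of apoptotic osteoblasts, grouped by the age label. The authors deposited 1 FPKM value per gene and library. The submitters' processing notes name the build mm10 and the tools fastp, STAR, HTSeq and edgeR. What each tool did, versions, annotation release, filters and strand use were not given in the sources used here. Gene symbols, positions and lengths were taken from GENCODE M21 (GRCm38, the assembly mm10 names), which held 55141 of the 55487 identifiers. Sequences came from RefSeq (GRCm38.p6).

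Reads were recovered from the steps of the FPKM values, taking as a gene's length the rounded mean over its annotated transcripts. Within 0.01 reads, 97.6% of nonzero values were whole, and so were those of all 10 genes. Totals were 16333396 and 18114336 reads. Ratio intervals are exact 95% Clopper-Pearson intervals of the share of a gene's reads that came from the old library, scaled by the totals, and level intervals are exact Poisson. PCR copies are not independent molecules. A gene at 0 was given 3 reads as its upper limit. No test was run, since each group has 1 library. The calculation was tested on simulated data. Sharing was counted with words of 50 bases, every 25 bases, searched in all other genes' transcripts.

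Named genes were the 10 genes, all genes of the family, interferon ligand, receptor, factor and inhibitor lists, the 3 largest differences of each other list, a few markers and the 3 genes most alike in ratio. From the list of factors 1 gene was left out and is not reported here. The genes and lists were chosen with earlier results of these data known. Analyses used Python 3.11.15, numpy 2.4.6, pandas 2.3.3, scipy 1.17.1 and matplotlib 3.10.9.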

Additional observations from a re-analysis of the deposited data

How the results depend on the processing

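The alternatives changed the pseudocount, the filter on low values or the scaling. All 55 single values of the 10 genes were above 0, and 48 of the 55 stayed within their counting interval. Neither count is a check of robustness. A pseudocount cannot move a value across 0, and a filter leaves a gene's value as it was. Only rescaling and centring could have changed a sign. With 5 in place of 1 as pseudocount, the count of GBP and IRG genes at 2-fold higher was 1 (Gbp3) instead of 2 and their median log2 ratio was 0.49, while all genes gave 101 higher and 20 lower instead of 248 and 109, and the pathway lists gave 3 higher instead of 7. With the filter raised to 10 FPKM, these counts were 1 (Gbp3), then 106 higher and 27 lower, then 2. That filter left 5 of the GBP and IRG genes and 8264 genes in all, so its counts have other bases than the main ones. The 7 pathway genes were out of 55 past the 1 FPKM filter. Tgtp2 and F830016B08Rik, 2 of the 7, passed it through the old library, so that this count supports nothing about the lists. With a pseudocount as small as 0.1, all genes gave 408 higher and 236 lower. The median of the GBP and IRG genes without any filter was 0.62. Over the 4 genes with under 10% shared words, 1 (Gbp3) was at 2-fold or more higher, against 1.97% of all genes past the 1 FPKM filter. In the pathway lists 0 genes were lower, but 1, Socs3, was lower with 0.1 as pseudocount and after rescaling without the 10 most abundant genes. Higher genes made up 69.5% of those at 2-fold, against 83.5% with 5 as pseudocount, 79.7% with the raised filter, 77.3% when centred on the median, 67.9% after rescaling, 66.7% without any filter and 63.4% with 0.1 as pseudocount. A larger pseudocount shrinks the ratios of low genes by construction, and the stricter filter leaves fewer genes. No paired analysis was possible because each group has 1 library. Depth limits Gbp4, Gbp5 and Gbp6, which have 94 reads or fewer over both libraries.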
